A study of Mus musculus with 8 samples.

Results

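The RNA levels of 10 genes that remove hydrogen peroxide and other peroxides were examined in CD8+ T cells of tumor-bearing mice. The genes were the peroxiredoxins Prdx1 to Prdx6, thioredoxin (Txn1), thioredoxin reductase (Txnrd1), catalase (Cat) and glutathione peroxidase 1 (Gpx1). They were found by gene name in the deposited table, where each name had 1 entry, so the set held 10 of 47493 genes. Female C57BL/6 mice, 6 to 8 weeks old, carried B16F10 melanoma cells (200000, day 0). All were given cyclophosphamide (300 mg/kg, day 3), Pmel-1 T cells with a receptor for a melanoma antigen (2000000, day 5), IL-2 (10000 IU daily for 3 days) and anti-CD4 antibody (200 μg on days 10, 17 and 24). On day 25, Thy1.1-negative endogenous CD8+ T cells of lymph nodes and spleen were separated on a magnetic column into an IL-18Rαhi-enriched fraction and the flow-through, which served as the control (n = 4 mice, with both fractions from each mouse).

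Peroxiredoxins reduce peroxides with a reactive cysteine, and most of them are then restored by thioredoxin. Thioredoxin is in turn reduced by thioredoxin reductase with electrons from NADPH. Glutathione peroxidases use glutathione for the same purpose, while catalase breaks down hydrogen peroxide without a reductant. In T cells, receptor engagement produces hydrogen peroxide that takes part in signaling, and dividing cells need thioredoxin to supply ribonucleotide reductase. Red-cell precursors are also rich in these enzymes, above all in peroxiredoxin 2, catalase and glutathione peroxidase 1.

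The selected receptor gene Il18r1 was at 22.2 to 37.2 FPKM (sequenced fragments scaled by the authors to transcript length and library depth) in the flow-through and at 106.6 to 116.0 FPKM in the enriched libraries. The estimated depth was 14454398 to 17378008 fragments per flow-through library and 14487719 to 17418069 per enriched library. The flow-through library of mouse 1 stood apart. Its 8 CD8 T-cell identity genes summed to 1337 FPKM. That sum was 2144 to 2548 FPKM for mice 2 to 4 and 2542 to 2724 FPKM on the enriched side. Its 10 erythroid progenitor genes summed to 2394 FPKM, the highest of the 8 libraries. Bulk RNA cannot tell fewer cells of a type from less RNA per cell.

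The 10 genes divided by direction (plot of the levels by library). Prdx1, Prdx4, Prdx5 and Txn1 were higher in the enriched fraction in 4 of 4 mice, and Prdx2, Prdx3, Prdx6 and Gpx1 were lower in 4 of 4 mice. Of all 12166 genes tested, 59.8% moved 1 way in every mouse, 29.2% being higher and 30.6% lower. Tested with limma on log2(FPKM + 1) without regard to the mouse, Prdx1 rose and Prdx6 fell at an adjusted p under 0.05, so that 2 of the 10 genes were called beside 27.8% of all genes (14.1% higher, 13.7% lower). When the mouse was added as a block, 8 were called, 4 in each direction, beside 44.9% of all genes (22.2% higher, 22.7% lower). Txnrd1 and Cat passed in neither fit. The median log2 fold change was 0.05 over the 10 genes and -0.018 over all genes tested.

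**Figure D1:**
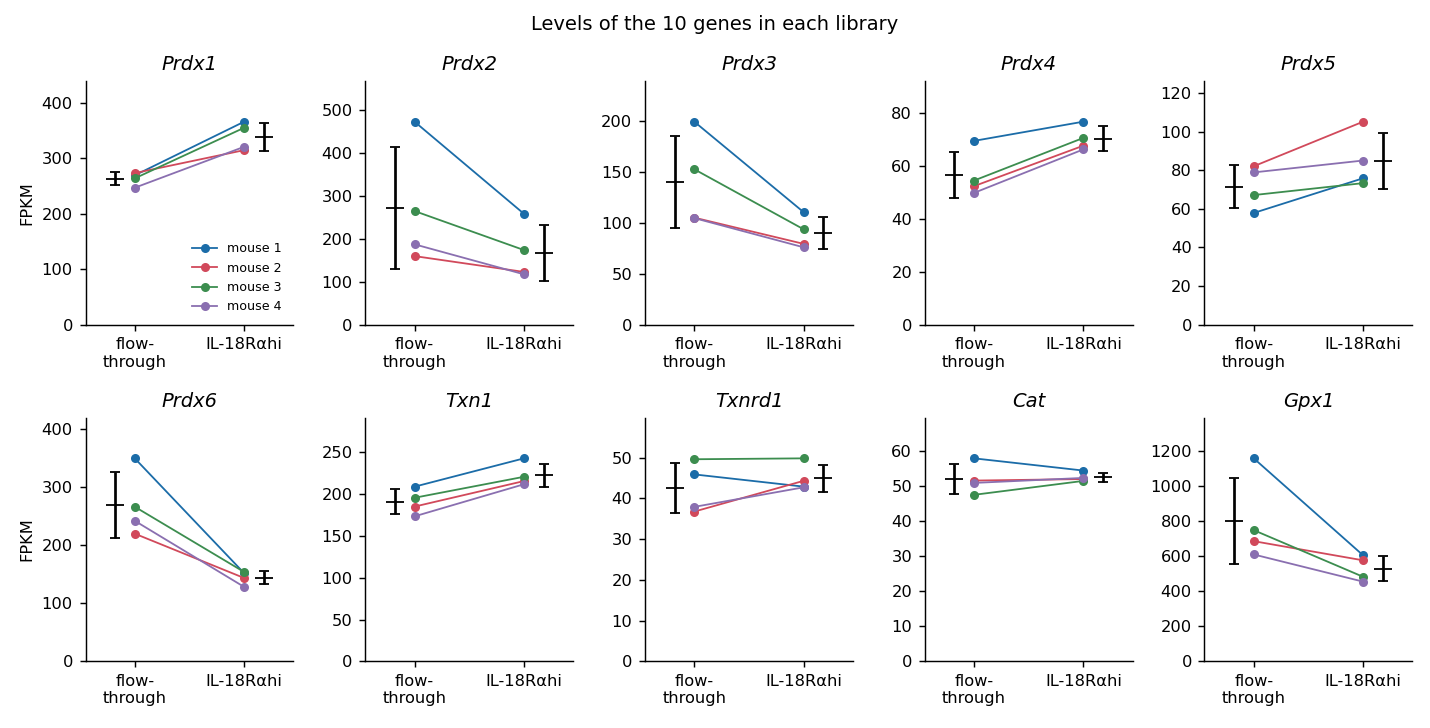
Level in FPKM (vertical axes, starting at 0) of each of the 10 genes in the flow-through and the IL-18Rαhi-enriched library of each mouse, with lines joining the libraries of 1 mouse and black marks for the mean ± SD (n = 4). Lines of Prdx1, Prdx4, Prdx5 and Txn1 rise in every mouse, those of Prdx2, Prdx3, Prdx6 and Gpx1 descend in every mouse, and those of Cat and Txnrd1 differ in direction between mice.

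Prdx1 (ENSMUSG00000028691; mm10 chromosome 4, 116685544 to 116700822, plus strand, protein-coding) encodes the main cytosolic peroxiredoxin of nucleated cells. Its level in the flow-through was 269.2, 273.2, 263.8 and 246.9 FPKM in mice 1 to 4, and in the enriched fraction it was 366.0, 314.7, 355.0 and 320.7 FPKM. Every enriched library lay above every flow-through library. The mean went from 263.3 ± 11.6 to 339.1 ± 25.2 FPKM (SD, n = 4), a ratio of 1.29. On the log2 scale this was a rise of 0.36 (SE 0.08), with an adjusted p of 0.0105 in limma and of 0.0062 with the mouse as a block.

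Txn1 (ENSMUSG00000028367; chromosome 4, 57943373 to 57956411, minus strand) encodes the cytosolic electron donor of most peroxiredoxins. Mice 1 to 4 had 208.9, 185.1, 195.7 and 173.5 FPKM in the flow-through and 242.8, 215.7, 220.8 and 211.8 FPKM in the enriched fraction. The fractions did not overlap, although the lowest enriched and the highest flow-through library were close. Over all genes, the fractions did not overlap for 32.3%, and 16.4% were higher in the enriched fraction in this way. The difference of 0.22 on the log2 scale (SE 0.08) did not pass without the block (limma adjusted p = 0.0722) and passed with it (0.0206). The difference within a mouse was 0.17 to 0.29 on the log2 scale.

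Txnrd1 (ENSMUSG00000020250; chromosome 10, 82833951 to 82897712, plus strand) encodes the cytosolic reductase of thioredoxin. It was at 45.9, 36.8, 49.6 and 37.9 FPKM in the flow-through of mice 1 to 4 and at 42.9, 44.3, 49.8 and 42.7 FPKM in the enriched fraction. The ranges overlapped throughout, and 3 of 4 mice were higher in the enriched fraction. The fractions differed by 0.09 on the log2 scale, with a 95% interval of -0.17 to 0.34 (limma adjusted p = 0.592), or -0.10 to 0.27 with the mouse as a block, and by 0.021 to 0.16 when 1 library was left out. The gene overlaps 3 others, Eid3 on its own strand among them, which leaves its level uncertain to that extent. Thioredoxin RNA exceeded that of its reductase 4.53 ± 0.448 times in the flow-through and 4.98 ± 0.510 times in the enriched fraction.

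Prdx1 and Txnrd1 are often cited as targets of NRF2, a transcription factor of the oxidative stress response, and their promoters are shown because both hold its core motif. The letters TGACNNNGC were searched on both strands from 250 bases before to 50 bases after each start in RefSeq (GRCm38.p6, the mm10 assembly). There 9 of the 10 genes had 11 starts, while Prdx6 had no start listed and was not searched. A match was present at Prdx1 and at 1 of 3 starts of Txnrd1, and 12.4% of all 32851 windows of this length held one. The GATA letters AGATAA, searched in the same way, were in 11.2% of all windows and in none of these 11. The sequences below are the 180 bases that begin 250 bases before the start, read along the gene, with the match (here on the opposite strand) in capitals.
Prdx1, chr4:116685349-116685528, plus strand: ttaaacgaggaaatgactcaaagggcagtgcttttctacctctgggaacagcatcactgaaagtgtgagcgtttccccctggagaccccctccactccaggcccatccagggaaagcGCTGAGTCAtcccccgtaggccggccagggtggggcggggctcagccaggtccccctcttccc
Txnrd1, chr10:82858956-82859135, plus strand: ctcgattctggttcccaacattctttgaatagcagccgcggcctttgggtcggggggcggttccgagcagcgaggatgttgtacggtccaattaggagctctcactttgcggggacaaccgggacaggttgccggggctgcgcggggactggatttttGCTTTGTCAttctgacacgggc
Prdx1 rose with and without the block, and Txnrd1 passed in neither fit. Use of these matches in the cells was not tested.

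Prdx4 (ENSMUSG00000025289; chromosome X, 155323918 to 155340754, minus strand) encodes the peroxiredoxin of the endoplasmic reticulum. It was at 69.5, 52.4, 54.5 and 49.9 FPKM in the flow-through of mice 1 to 4 and at 76.8, 67.7, 70.7 and 66.3 FPKM in the enriched fraction. The flow-through library of mouse 1 lay among the enriched libraries, and the other 3 flow-through libraries lay below all of them. Its log2 difference of 0.32 (SE 0.11) had a limma adjusted p of 0.0615, or 0.0106 with the mouse as a block. Without the flow-through library of mouse 1 it was 0.42 (limma adjusted p = 0.0054).

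Prdx5 (ENSMUSG00000024953; chromosome 19, 6906697 to 6910106, minus strand) encodes a peroxiredoxin found in mitochondria, peroxisomes and cytosol. Its levels were 57.9, 82.1, 67.1 and 78.9 FPKM in the flow-through and 75.9, 105.2, 73.3 and 85.0 FPKM in the enriched fraction. The groups overlapped widely, and the mice differed from one another by more than their fractions did. The mean difference on the log2 scale was 0.24 (SE 0.15), which missed the threshold in limma (adjusted p = 0.245) and passed with the mouse as a block (0.0365). The block call was lost whichever mouse was left out (limma adjusted p of 0.0793, 0.110, 0.0763 and 0.0590 without mouse 1, 2, 3 or 4). The difference was 0.15 without the flow-through library of mouse 1 and 0.14 without the enriched library of mouse 2. Of its bases 409 overlap Trmt112 on the other strand, which was at 104.4 to 127.5 FPKM in the flow-through and at 84.2 to 100.5 FPKM in the enriched fraction. Cufflinks does not use strand by default, so reads of such pairs may be mixed and these values are uncertain.

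Of the genes that were lower, Prdx6 changed most. Prdx6 (ENSMUSG00000026701; chromosome 1, 161240112 to 161251219, minus strand) encodes a peroxiredoxin with a single reactive cysteine that is restored by glutathione and also acts on phospholipid peroxides. Its flow-through libraries were at 349.6, 219.9, 266.2 and 242.0 FPKM and its enriched libraries at 151.8, 143.5, 153.9 and 128.2 FPKM. All enriched libraries were far below the lowest flow-through library. The mean fell from 269.4 ± 56.7 to 144.3 ± 11.7 FPKM, so that the flow-through held 1.87 times the enriched level. The log2 fold change was -0.88 (SE 0.14), with adjusted p = 0.0039 in limma and 0.0010 with the mouse as a block, and it ran from -0.97 to -0.75 when any 1 library was left out.

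Prdx3 (ENSMUSG00000024997; chromosome 19, 60864051 to 60874556, minus strand) encodes the mitochondrial peroxiredoxin. It was at 199.0, 104.9, 152.4 and 104.5 FPKM in the flow-through and at 110.2, 79.2, 93.5 and 75.8 FPKM in the enriched fraction. The fractions overlapped through mouse 1, whose enriched library exceeded the flow-through libraries of mice 2 and 4. A difference of -0.60 on the log2 scale (SE 0.22) had a limma adjusted p of 0.0740, or 0.0027 with the mouse as a block. Within the mice the difference was -0.85, -0.40, -0.70 and -0.46.

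Prdx2 (ENSMUSG00000005161; chromosome 8, 84969587 to 84974834, plus strand) encodes the cytosolic peroxiredoxin that is abundant in red cells. Relative to its mean it had the largest SD of the 10 genes in both fractions, with 472.0, 159.5, 264.3 and 186.9 FPKM in the flow-through and 257.8, 122.7, 173.5 and 117.2 FPKM in the enriched fraction. Mouse 1 had the highest and mouse 3 the second highest level in both fractions, and the enriched library of mouse 1 exceeded the flow-through libraries of mice 2 and 4. The log2 fold change of -0.63 had a wide interval of -1.47 to 0.21 without the block (limma adjusted p = 0.229) and one of -0.84 to -0.42 with it (0.0022). Without the flow-through library of mouse 1 it was -0.32 (limma adjusted p = 0.456). Prdx2 overlaps Junb by 351 bases and Rnaseh2a by 181 bases on the other strand, and these were at 168.9 to 349.8 FPKM and 41.4 to 75.3 FPKM.

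Gpx1 (ENSMUSG00000063856; chromosome 9, 108338903 to 108340343, plus strand) had the highest level of the 10 genes in every library. It was at 1160, 686.7, 749.5 and 610.7 FPKM in the flow-through and at 605.4, 577.1, 483.0 and 455.4 FPKM in the enriched fraction. The fractions did not overlap, but enriched mouse 1 and flow-through mouse 4 differed by little. Over all genes, 15.9% were lower in the enriched fraction without overlap. The mean went from 801.6 ± 245.3 to 530.2 ± 72.3 FPKM, a log2 difference of -0.56 (SE 0.20) whose limma adjusted p was 0.0643, or 0.0087 with the mouse as a block. Without the flow-through library of mouse 1 it was -0.37 (limma adjusted p = 0.0594).

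Gpx1 and Txnrd1 encode selenoproteins, in which a stop codon within the coding sequence is read as selenocysteine. Both codons are shown because these enzymes, unlike the other members, depend on this reading. The coding sequence around each is given from GENCODE M21 (mm10), with the codon in capitals.
Gpx1, codon 47 of 202 counted with the final stop, chromosome 9, 108339451 to 108339453: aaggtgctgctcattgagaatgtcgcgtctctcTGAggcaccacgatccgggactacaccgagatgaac
Txnrd1, codon 498 of 500, chromosome 10, 82896037 to 82896039: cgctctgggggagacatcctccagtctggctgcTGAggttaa
In Txnrd1 the codon is followed by 6 bases, the last codon and the stop. Of the 24 genes with an annotated selenocysteine codon, a list made after the values had been seen, 19 passed the filter on level, and 1 rose and 1 fell without the block. With the mouse as a block 5 rose and 4 fell, and the median log2 fold change was -0.054. The 2 of 19 compare with 27.8% of all genes and the 9 of 19 with 44.9%. The glutathione peroxidase of membrane lipids, Gpx4, was among the latter (299.8 to 216.5 FPKM, log2 fold change -0.44), as was the mitochondrial reductase gene Txnrd2 (37.2 to 19.5 FPKM, -0.87).

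Cat (ENSMUSG00000027187; chromosome 2, 103453849 to 103485160, minus strand) encodes the peroxisomal enzyme catalase. It was at 57.9, 51.5, 47.5 and 50.9 FPKM in the flow-through of mice 1 to 4, and at 54.4, 52.0, 51.5 and 52.3 FPKM in the enriched fraction. All enriched libraries lay within the flow-through range. The log2 fold change was 0.02, with a 95% interval of -0.15 to 0.19 (limma adjusted p = 0.868), and 3 of 4 mice were higher in the enriched fraction.

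Because T-cell identity genes also differed between libraries, the levels were rescaled so that each library had the same geometric mean of the 8 CD8 T-cell identity genes, of which 0 passed without the block and 1 was higher with it (plot of the fold changes under 3 fits). This T-cell scaling moved the median of all genes to -0.32, and without the block 11.9% of them passed (4.29% higher, 7.62% lower). Under it, the log2 fold change of Prdx1 was 0.02, and those of Prdx4 (-0.016), Prdx5 (-0.09), Txn1 (-0.11), Txnrd1 (-0.25) and Cat (-0.31) turned below 0. The 8 identity genes differed most between the fractions in mouse 1, by 0.77 to 1.29 on the log2 scale (enriched minus flow-through). In mice 2 to 4 they differed by -0.19 to 0.47, so the scaling moved mouse 1 most. T-cell scaling without mouse 1 was not tested. Of Prdx1, Prdx4, Prdx5 and Txn1 none passed under T-cell scaling with or without the block. Only Prdx6 of the 10 genes passed under it without the block. Prdx2 (-0.97), Prdx3 (-0.94), Prdx6 (-1.22) and Gpx1 (-0.90) were lower under it, and with the mouse as a block all 4 passed (limma adjusted p of 0.0024 for Prdx2, 0.0048 for Prdx3 and 0.0024 for Gpx1), in a fit in which 18.2% of all genes were lower and 5.18% higher. With the mouse as a block and no scaling, the 4 also passed when any 1 mouse was left out, beside 20.2%, 19.9%, 14.3% and 15.9% of all genes lower without mouse 1, 2, 3 or 4. Of the 4 genes that were higher, 3, 2, 1 and 1 passed, beside 20.8%, 19.7%, 15.3% and 16.8% of all genes.

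**Figure D2:**
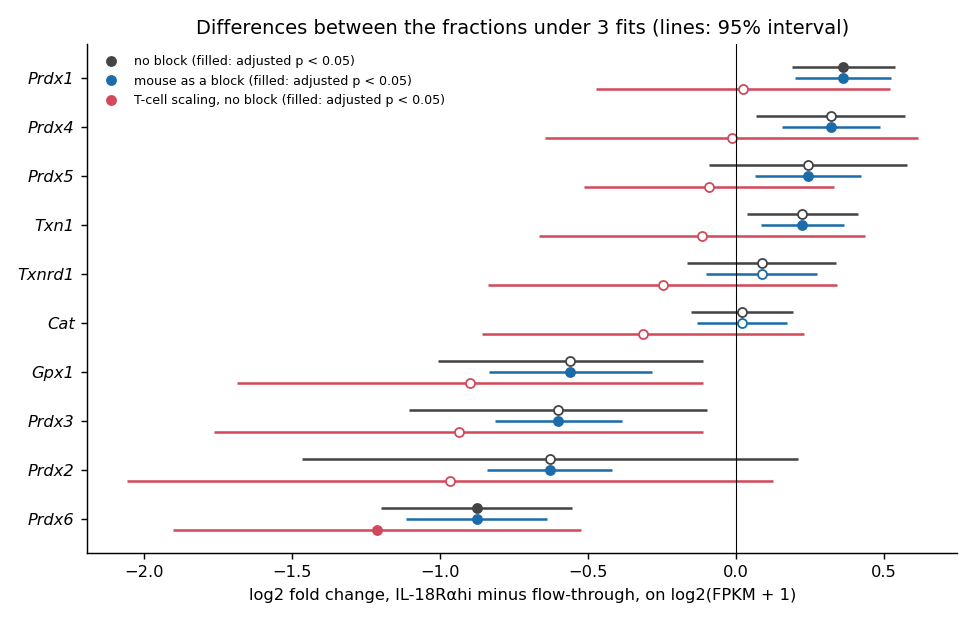
Log2 fold change of each gene (horizontal axis, enriched minus flow-through on log2(FPKM + 1)) with its 95% interval, without a block (dark), with the mouse as a block (blue) and under T-cell scaling without a block (red), where filled points passed an adjusted p of 0.05. The dark and blue points have the same value and differ in the width of their intervals, while the red points lie further left, with those of Gpx1, Prdx3, Prdx2 and Prdx6 still the lowest.

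The order of the levels differed between the fractions, and FPKM, being divided by transcript length, allows the genes to be set side by side. In the flow-through Gpx1 was followed by Prdx2 (270.7 ± 141.4 FPKM), Prdx6 (269.4 ± 56.7) and Prdx1 (263.3 ± 11.6), whose means lay within their spread, and then by Txn1 and Prdx3. In the enriched fraction Prdx1 (339.1 ± 25.2 FPKM) came next after Gpx1 and was followed by Txn1 (222.8 ± 13.9), ahead of Prdx2 (167.8 ± 65.1) and Prdx6 (144.3 ± 11.7). Txn1 and Prdx2 overlapped there, as did Prdx2 and Prdx6, and Prdx3 and Prdx5. Prdx5, Prdx4, Cat and Txnrd1 held the last 4 places in both fractions.

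The share of Prdx1 in the summed FPKM of the 10 genes went from 12.6% ± 2.38 to 19.5% ± 1.30, and that of Prdx6 from 12.5% ± 0.760 to 8.29% ± 0.520. Prdx1 was at 1.15 ± 0.485 times the level of Prdx2 in the flow-through and at 2.19 ± 0.593 times in the enriched fraction. Against Prdx6 the ratio was 1.01 ± 0.193 and 2.35 ± 0.134, with no overlap between the fractions (0.770 to 1.24 and 2.19 to 2.50). These ratios are formed within a library, so no scaling between libraries alters them. The sum over the 10 genes was lower in the enriched fraction in 4 of 4 mice, at 0.687, 0.930, 0.817 and 0.873 times the flow-through sum.

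**Figure D3:**
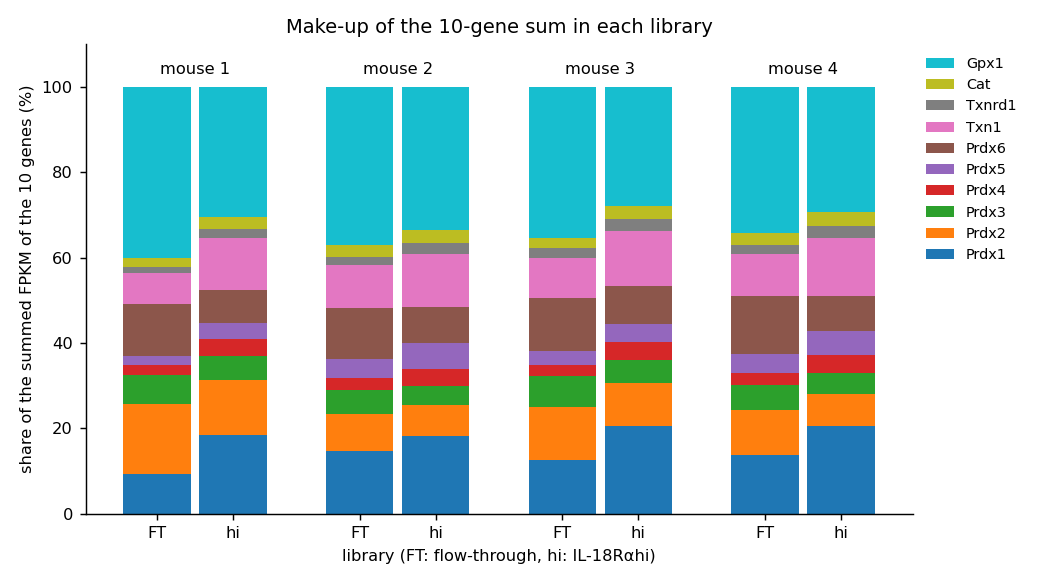
Share of each gene in the summed FPKM of the 10 genes (vertical axis, %) in the 8 libraries, set side by side for each mouse (FT, flow-through; hi, IL-18Rαhi-enriched). The lowest segment, Prdx1, is taller in the enriched library of every mouse (18.3 to 20.6% against 9.32 to 14.8%), and the top segment, Gpx1, is shorter.

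Markers of other cells moved with several of the 10 genes (plot of the members beside 2 marker lists). Erythroid progenitor genes summed to 866.4 to 2394 FPKM in the flow-through and 146.0 to 603.3 FPKM in the enriched fraction. Of these 10 genes 6 were lower without the block and 9 with it, beside 13.7% and 22.7% of all genes. None was at 0 throughout, and the erythroid factor gene Gata1 was at 32.7 to 117.5 FPKM against 7.22 to 30.7 FPKM. Mouse 1 had the highest and mouse 3 the second highest sum in both fractions, as for Prdx2 and Prdx3. Prdx6 and Gpx1 had this order in the flow-through only. Globin genes and Alas2, which mark more mature red cells, summed to 204.2 to 1055 and 117.4 to 1146 FPKM, and 0 of 5 passed without the block (2 were lower with it). Cat, also named above as abundant in red-cell precursors, had a log2 fold change of 0.02. The erythroid progenitor sum was lower in the enriched fraction in 4 of 4 mice. The part of these cells in the level of Cat, or in the lower levels of Prdx2, Prdx3, Prdx6 and Gpx1, was not tested.

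The 10 proliferation genes summed to 914.9 to 1561 FPKM in the flow-through and 1304 to 1846 FPKM in the enriched fraction, being higher in 4 of 4 mice, as were Prdx1, Prdx4, Prdx5 and Txn1. Over the libraries Prdx5 did not follow Prdx1, Prdx4 and Txn1. It was lowest in the flow-through library of mouse 1 (57.9 FPKM), whose proliferation sum was the highest of the flow-through. Within the flow-through, Prdx1 was highest in mouse 2, whose proliferation sum (1002 FPKM) was below those of mice 1 and 3. Of the 10 proliferation genes 4 rose and 0 fell without the block, and 7 rose with it, none of them under T-cell scaling without the block. Of all genes 14.1% rose without the block and 22.2% with it. Mki67, a marker of cycling cells, was at 28.8 to 57.9 FPKM and 54.5 to 76.2 FPKM (0.78 on the log2 scale, SE 0.21). Macrophage and monocyte genes, of which 4 of 7 tested rose (6 with the block), summed to 116.0 to 394.9 and 380.4 to 892.6 FPKM, and NK-cell genes, of which 5 of 6 rose in both fits, to 27.7 to 59.6 and 129.5 to 246.2 FPKM. Granulocyte progenitor genes summed to 587.4 to 3424 and 567.4 to 3342 FPKM, with 0 of 5 past the threshold, but with the block Mpo passed as lower (limma adjusted p = 0.0139) and Elane as higher (0.0171). Neutrophil genes summed to 30.6 to 177.1 and 77.9 to 697.7 FPKM, with 0 of 6 past the threshold and S100a8 higher with the block (limma adjusted p = 0.0035), and Cd4 and Cd40lg, which both rose, to 2.11 to 4.57 and 16.6 to 22.6 FPKM. The study reports Ncr1, Klrb1c and Klrk1 of the NK-cell list, and Cd40lg, as upregulated in the IL-18Rαhi-enriched CD8+ T cells. Whether RNA of these genes came from CD8+ T cells or from other cells was not tested. The sums of B-cell genes did not exceed 69.8 FPKM (0 of 5 past the threshold, 1 higher with the block), and 4 of 5 melanoma genes were listed at 0 in every library. Red cells had been lysed and the CD8+ T cells purified by removal of other cells before the column. The part of cells other than CD8+ T cells in the levels of the 10 genes was not tested.

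**Figure D4:**
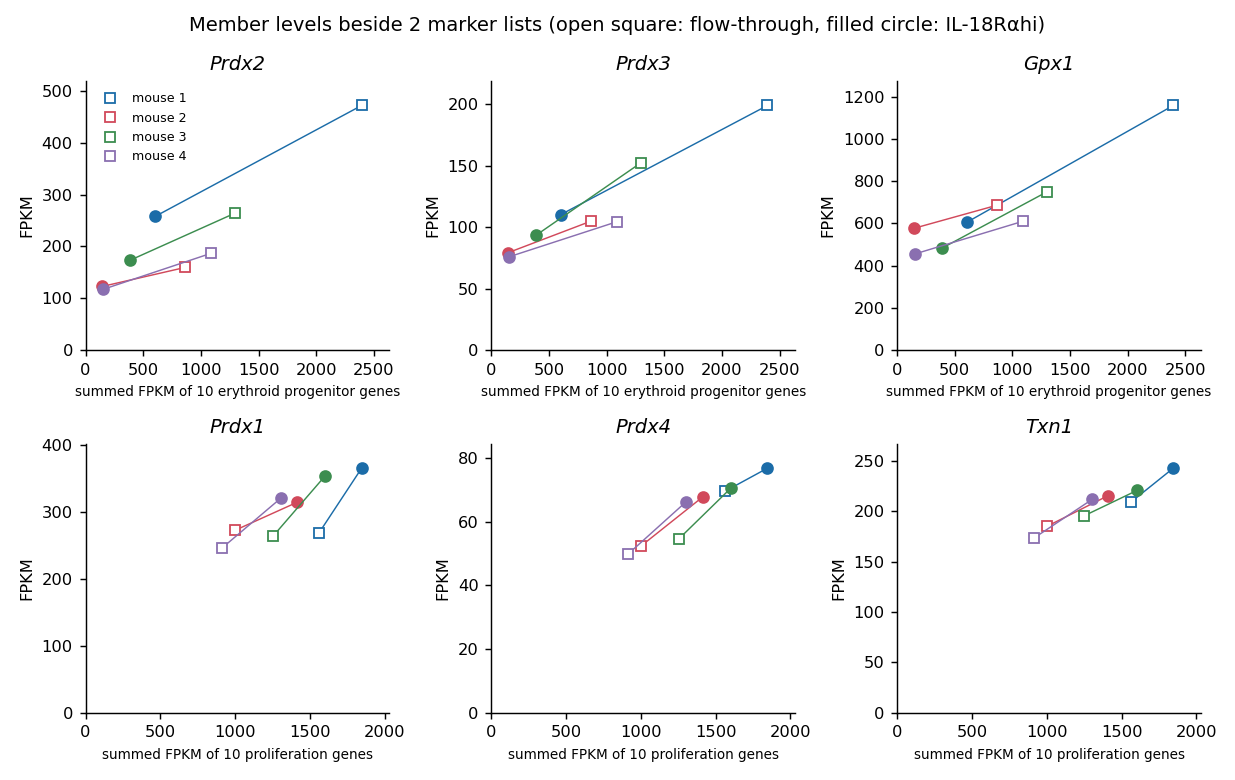
FPKM of Prdx2, Prdx3 and Gpx1 against the summed FPKM of 10 erythroid progenitor genes (upper row) and of Prdx1, Prdx4 and Txn1 against that of 10 proliferation genes (lower row), all axes starting at 0, with an open square for the flow-through and a filled circle for the enriched library of each mouse. In every mouse the line runs up to the right, from the enriched to the flow-through library above and from the flow-through to the enriched library below.

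The genes with the most similar pattern were sought among the 9329 genes averaging 5 FPKM or more, by Pearson's r of log2(FPKM + 1) over the 8 libraries, which share 4 mice. The best of 9329 genes over 8 libraries can reach a high r without a shared cause, and no chance level was computed. The nearest genes of Prdx2 were Ubac1 (0.996) and Lrrc20 (0.995). For Prdx3 they were Vdac2 (0.998) and Uqcrc2 (0.997), which encode a channel of the outer mitochondrial membrane and a subunit of respiratory complex III. For Gpx1 they were Stom (0.987), which encodes the membrane protein stomatin, and Pi4k2b (0.985). For Prdx6 they were Smyd2 (0.999) and Fpgs (0.995). The nearest genes of Txn1 were Melk (0.996), a kinase gene of dividing cells, and Ube2l3 (0.993), and those of Prdx4 were the mitotic kinesin gene Kif18b (0.995) and the thymidylate synthase gene Tyms (0.992). Prdx1 was nearest to Ywhah and Ywhaq (0.986 and 0.985), which encode 14-3-3 proteins. For Prdx5 (Cebpd, 0.980; Nrros, 0.976), Txnrd1 (Cln8, 0.959; Atp2a2, 0.958) and Cat (Zbtb7a, 0.911; Gm42418, 0.899) the likeness was less close.

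Other genes of the redox system were compared as lists (plot of the redox and proliferation lists). Among 20 thioredoxin-fold and repair enzymes, 1 rose and 3 fell, and with the mouse as a block 6 rose and 9 fell (median log2 fold change -0.13), beside 27.8% of all genes called without the block and 44.9% with it. Glrx, the glutaredoxin gene, rose from 46.4 ± 9.47 to 87.1 ± 8.31 FPKM (0.91 on the log2 scale, SE 0.14, limma adjusted p = 0.0038). Txnrd3, a reductase gene known best from testis, fell from 3.63 ± 0.860 to 1.30 ± 0.230 FPKM (-0.99), Msrb2, which encodes a mitochondrial methionine sulfoxide reductase, from 11.9 to 7.11 FPKM (-0.66), and the sestrin gene Sesn1 from 17.7 to 13.2 FPKM (-0.39).

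Of 13 glutathione genes tested, 0 rose and 3 fell without the block, and 2 rose and 7 fell with it (median -0.44), beside the same 27.8% and 44.9% of all genes. The 3 were transferase genes, namely Gsta4 (6.81 ± 1.78 to 1.74 ± 1.25 FPKM, log2 fold change -1.59, SE 0.30), Gsto1 (80.0 ± 9.48 to 42.7 ± 3.81 FPKM, -0.89) and Gstp1 (131.0 ± 20.3 to 83.8 ± 21.1 FPKM, -0.66). Both superoxide dismutase genes that could be tested were lower in 4 of 4 mice, and the mitochondrial Sod2 fell without the block (26.7 ± 4.55 to 18.2 ± 1.13 FPKM, -0.52) and both fell with it. Of 5 genes of NADPH supply, the mitochondrial isocitrate dehydrogenase gene Idh2 fell (67.4 ± 5.17 to 40.4 ± 4.98 FPKM, -0.73) and 0 rose, with the block as without it.

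NRF2 itself is encoded by Nfe2l2, which fell from 40.7 ± 6.93 to 23.0 ± 0.838 FPKM (-0.79 on the log2 scale, SE 0.11, adjusted p = 0.0025 in limma). Of the 8 NRF2 regulators and targets 4 fell and 1 rose, with the block as without it. Of all genes 13.7% fell and 14.1% rose without the block, and 22.7% fell and 22.2% rose with it. The target gene Nqo1 fell from 12.7 ± 4.60 to 3.36 ± 1.91 FPKM (-1.70), and the transcriptional repressor gene Bach2 from 7.71 ± 3.68 to 2.84 ± 0.983 FPKM (-1.11). Nqo1 was highest in mouse 1 and second highest in mouse 3 in both fractions, as was the erythroid progenitor sum. Nfe2l2 had this order in the flow-through only, and Bach2 was lowest in mouse 1 in both fractions. The part of red-cell precursors in the lower levels of these genes was not tested. Hmox1, which encodes heme oxygenase 1, rose from 2.68 ± 0.933 to 8.72 ± 1.46 FPKM (1.43, SE 0.21), and it is also a gene of macrophages, whose markers were higher in that fraction. The part of macrophages in it was not tested.

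Of 6 genes for NADPH oxidase, the enzyme that makes superoxide, 2 rose and 0 fell, and with the mouse as a block 5 rose (median 0.44), beside 14.1% and 22.2% of all genes that rose. Those called without the block were the GTPase genes Rac2 (314.9 ± 69.0 to 467.6 ± 20.2 FPKM, 0.60) and Rac1 (228.6 ± 10.5 to 294.6 ± 3.21 FPKM, 0.37), which have other roles in T cells, and 0 of the 6 passed under T-cell scaling. Of 6 genes of selenoprotein synthesis 0 passed without the block, and 2 fell with it (median -0.19), beside 22.7% of all genes that fell with it.

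**Figure D5:**
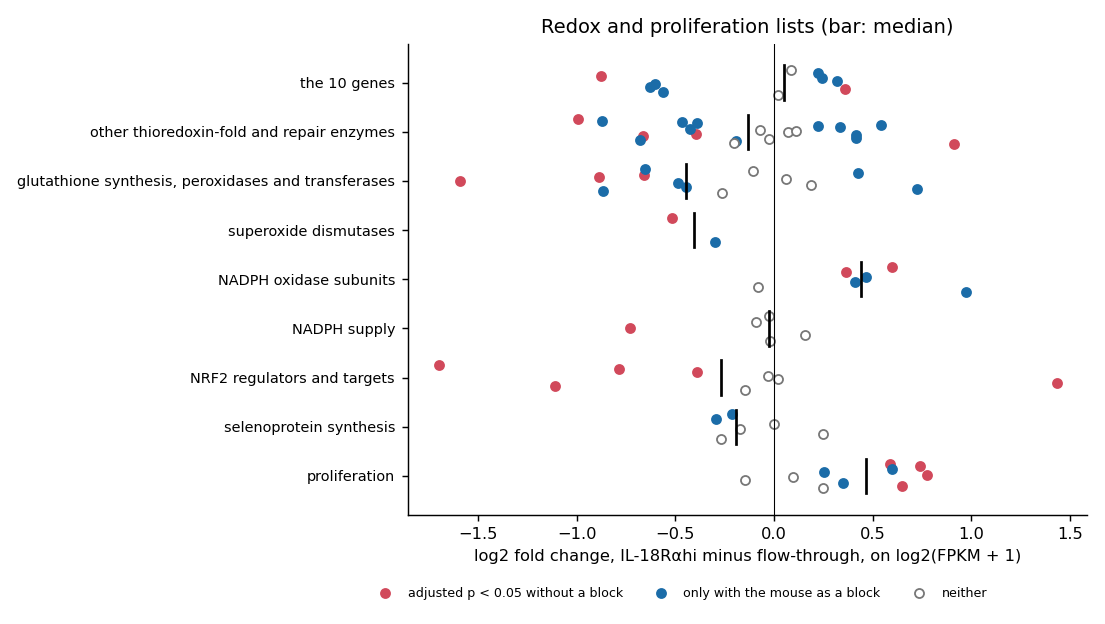
Log2 fold change (horizontal axis, enriched minus flow-through on log2(FPKM + 1)) of each tested gene of the 10-gene set and of 8 other lists, with a bar at each median, red for genes past an adjusted p of 0.05 without a block, blue for those past it only with the mouse as a block and open for the others. Medians range from -0.44 for glutathione genes to 0.47 for proliferation genes, and the 10 genes lie on both sides of 0.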

How the data were processed

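RNA was measured in 8 libraries, 4 flow-through and 4 IL-18Rαhi-enriched, from 4 mice. Groups and library numbers came from the labels, and the same number was taken as the same mouse. The authors purified poly(A) RNA, made stranded libraries, sequenced 150 bp paired ends, removed low-quality reads, mapped to mm10 with TopHat and estimated levels with Cufflinks 2.1.1 with correction for multiply mapped reads and fragment bias. The release of the annotation was not given in the sources used here. The deposited unit is FPKM. Entries named as near copies of members (Txn-ps1, Prdx6b, Prdx6-ps2, Prdx2-rs3) were listed at 0 in all libraries, and reads of other processed copies could have been divided differently.

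Values were analysed as log2(FPKM + 1) with limma 3.58.1 (R 4.3.3), with a trend of variance on the mean, over the 12166 genes that averaged 1 FPKM or more. The Benjamini-Hochberg adjustment ran over all of these (threshold 0.05). Fold changes on this scale understate changes of low genes. The study's own criteria need p-values from reads, so limma took their place. Whether the study's test paired the fractions by mouse is not stated, and the first fit has no block. The fit was tested on simulated data. Libraries with the same number in their labels were taken to come from 1 mouse. Their deviations from the fraction means correlated at 0.308 to 0.660 across genes (-0.600 to 0.412 for libraries with different numbers). The fit with the mouse as a block is therefore given too. Without the block, p-values rest on the spread of libraries within each fraction. That fit treats the 8 libraries as independent, although they share 4 mice. With the block, p-values rest on the spread of the within-mouse differences over 4 mice.

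FPKM keeps no whole reads. Depth was estimated from the worth of 1 fragment in genes with a single transcript, and no counting interval was given. Coordinates and overlaps are from GENCODE M21 (mm10), where all 10 names and identifiers matched. Members and lists were chosen with earlier results of these data known. The genes named were the members, Il18r1, in each list up to 3 called genes per direction with the largest change, preset markers, and the 2 nearest genes of each member. Gpx4, Txnrd2, genes that overlap members, single members of marker lists outside the preset ones and the selenoprotein list were added after values were seen. Alternatives were the pseudocount, the filter, the variance trend, 3 scalings, the block and leaving out libraries or a mouse. Fits combining the block with T-cell scaling or a missing mouse were chosen after the data had been seen. Some genes are not reported here.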

Additional observations from a re-analysis of the deposited data

How the results depend on the processing

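Without the block, 1720 genes rose and 1664 fell, among them 1 and 1 of the 10 peroxide genes, 8 and 12 genes of the pathway lists and 11 and 6 marker genes. When the mouse was made a block these became 2705 and 2763, 4 and 4, 21 and 25, and 17 and 12. Under T-cell scaling 522 rose and 927 fell, with 0 of the 10 genes and 1 pathway gene higher, and with the block added 630 genes rose and 2214 fell, 0 of the 10 genes rose and 4 fell, 2 pathway genes rose and 22 fell, and 13 marker genes fell. The log2 fold changes turned negative under T-cell scaling, with or without the block, for Prdx4 (-0.016), Prdx5 (-0.092), Txn1 (-0.11), Txnrd1 (-0.25) and Cat (-0.31). The median of all genes moved too, from -0.018 without scaling to -0.32 under T-cell scaling. That scaling moved mouse 1 most, and it was not run without mouse 1. With the block and without mouse 1, 2, 3 or 4, the number of the 10 genes that rose was 3, 2, 1 and 1 while 4 fell each time, over all genes 2544, 2388, 1866 and 2037 rose and 2468, 2414, 1739 and 1921 fell, pathway genes that rose numbered 20, 19, 15 and 17 and those that fell 22, 21, 19 and 19, and marker genes that fell numbered 14, 11 and 10 without mouse 1, 2 or 3. Cat was at -0.012 with the block without mouse 3, and ran from -0.022 (without flow-through library 3) to 0.071 when 1 library was left out. Without both libraries of mouse 1 and without the block, 2 of the 10 genes rose (Prdx1, Prdx4) and 2 fell (Prdx6, Gpx1). Of all 12234 genes tested in that fit, 1805 rose and 1554 fell. Leaving out 1 library at a time without the block gave 1107 to 1813 genes higher and 939 to 1780 lower, 1 to 3 and 1 to 2 of the 10 genes, 4 to 11 and 10 to 17 pathway genes, 8 to 12 and 3 to 7 marker genes, and 1.71 to 1.95 for Il18r1. Over all genes the counts were lowest without flow-through library 3 (939 lower), enriched library 2 (1115 higher, 958 lower) and enriched library 4 (1107 higher, 971 lower). Of the 10 genes, those added were Prdx4 and Txn1 (0.27, limma adjusted p = 0.0320) without flow-through library 1, Prdx3 (-0.72, 0.0466) without flow-through library 2 and Gpx1 (-0.68, 0.0428) without flow-through library 4. With no filter on level, 3 marker genes fell. The causes of these shifts were not tested. The numbers of the 10 genes that rose and fell stayed at 1 and 1 with the other pseudocount, with the other filters, without a variance trend, and with the other scalings of the libraries. Depth limits genes near 1 FPKM, such as Txnrd3, more than the 10 genes, whose lowest value was 36.8 FPKM.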
